A study of Mus musculus with 3 samples.

Results

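The genes described here are 10 genes of the Hippo pathway's transcriptional arm: the Yap and Tead target genes Ankrd1, Ctgf, Cyr61, Amotl2, Lats2, Axl and Crim1, the factor genes Tead1 and Tead4, and Yap1 itself. They were found by gene name among the non-control probes of an Agilent mouse array, which gave 16 probes for all 10 genes, of 41174 probes and 19862 named genes in all. Ctgf and Cyr61 are the names in the array files for the genes now called Ccn2 and Ccn1. The cells were mPTECs, a name used as the labels give it, taken from the kidneys of male mice of 1 month. One sample was taken straight after isolation (day 0) and others after 1 day and 3 days on culture dishes. The medium of the cultured cells was DMEM/F12 with insulin, transferrin, selenium, non-essential amino acids, hydrocortisone, antibiotics and 1% serum. No genotype or strain was given in the labels, nor whether animals were pooled. Each day was 1 sample on 1 array, so the differences below have no replicate check, no test was possible, and "higher" and "lower" describe these 3 arrays.

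Yap1 encodes a coactivator that has no DNA-binding domain and acts through the Tead factors. The Hippo kinases phosphorylate it and keep it out of the nucleus. When the kinases are less active, Yap and its relative Taz enter the nucleus and switch on genes of growth, adhesion and the cytoskeleton. The pathway is best known for its response to cell density, cell shape and the stiffness of the surface under a cell. Several of its targets, Lats2 and Amotl2 among them, encode inhibitors of Yap and so form a negative feedback.

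The 10 genes did not all differ in one direction. Ankrd1, Axl, Tead4 and Ctgf were at least 4-fold higher on day 3 than on day 0, and Tead1 was at least 2-fold higher. By their brightest probes, Lats2, Crim1 and Amotl2 stayed within 2-fold of day 0 on both days of culture. Cyr61 was lower on day 1 and back near its day 0 signal on day 3. The coactivator gene Yap1 was lower on both days, by less than 2-fold. The samples are bulk RNA, in which fewer cells of a type and less RNA per cell cannot be told apart, and markers of several cell types differed between the days as well.

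Signals are given as multiples of each array's 75th percentile, as in the authors' value table, and differences as log2 ratios of the later over the earlier day. All 16 probes were well above background on all 3 arrays and none was saturated. Each probe had 1 spot. The level of one probe says nothing about that of another, so only the days of a probe are compared. Repeated spots of one probe, where it had 5 or more, scattered by 0.14 (median SD, log2). Log2 ratios from separate probes of one gene scattered by 0.34 between days 1 and 0, by 0.47 between days 3 and 0 and by 0.27 between days 3 and 1 (median SD). These are the only measures of error the 3 arrays offer. They leave out the spread between cultures and animals.

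The 75th percentile was 1184, 1509 and 1515 intensity units on days 0, 1 and 3. Relative to it, the median of all spots stood at -0.21 on day 1 and -0.31 on day 3 on the log2 scale, against day 0. The spike-in controls stood at -0.17 and -0.53, and the mean of 12 reference genes at 0.39 and 0.41. The reference genes differed among themselves, from -1.05 to 1.57 on day 1 and from -1.22 to 1.39 on day 3. A scaling based on the median, the spike-ins or the reference gene mean would subtract its value from each ratio. Of all genes at least 4-fold apart, the higher ones made up 39.6% on day 1 against day 0, or 51.7% with median centring and 21.8% with reference gene scaling. On day 3 against day 0 they made up 40.5%, or 23.6% with reference gene scaling, 56.3% with arrays centred on the median and 66.8% with spike-in scaling. On day 3 against day 1 they made up 56.0%, or 77.9% with spike-in scaling.

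The promoters of the genes are shown first, since the Tead factors bind a short core that can be looked for in them. Of the 10 genes, 7 had a window in the RefSeq promoter table (build GRCm38.p6), which runs from 250 bases before a transcription start to 50 bases after it. The windows of Ctgf, Tead1 and Tead4 were not analysed here. The core was searched as GGAATG on either strand, so that it reads GGAATG or CATTCC along the gene. All 7 genes held at least 1 core in a window, as did 7 of their 8 windows, Lats2 having 2 windows with a core in 1 of them. Among all 32851 windows in the table, 14.7% held a core, and among all 27025 genes, 16.6% did. Of the further published targets described below, 9 had a window, and 1 of the 9 held a core. The 7 genes, Yap1 among them, were picked by name as genes of the pathway, and their share was not tested. The 250 bases before the start are printed below for the 6 genes whose core lies there, read 5′ to 3′ along the gene in lower case with the core in capitals.
Ankrd1, - strand, chr19:36119845-36120094: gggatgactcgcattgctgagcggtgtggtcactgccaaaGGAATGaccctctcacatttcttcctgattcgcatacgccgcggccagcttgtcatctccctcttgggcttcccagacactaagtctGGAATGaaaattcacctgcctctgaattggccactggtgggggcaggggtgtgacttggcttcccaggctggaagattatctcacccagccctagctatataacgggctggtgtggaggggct
Cyr61, - strand, chr3:145649986-145650235: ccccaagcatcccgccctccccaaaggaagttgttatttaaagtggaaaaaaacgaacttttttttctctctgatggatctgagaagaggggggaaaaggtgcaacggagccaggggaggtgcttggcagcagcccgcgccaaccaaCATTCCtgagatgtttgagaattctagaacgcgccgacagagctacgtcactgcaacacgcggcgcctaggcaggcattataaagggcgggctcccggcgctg
Amotl2, + strand, chr9:102717554-102717803: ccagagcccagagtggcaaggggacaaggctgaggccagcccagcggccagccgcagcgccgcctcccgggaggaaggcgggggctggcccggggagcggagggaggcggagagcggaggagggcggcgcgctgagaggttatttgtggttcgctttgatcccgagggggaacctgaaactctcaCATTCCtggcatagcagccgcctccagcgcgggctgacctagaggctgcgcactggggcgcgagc
Axl, - strand, chr7:25788734-25788983: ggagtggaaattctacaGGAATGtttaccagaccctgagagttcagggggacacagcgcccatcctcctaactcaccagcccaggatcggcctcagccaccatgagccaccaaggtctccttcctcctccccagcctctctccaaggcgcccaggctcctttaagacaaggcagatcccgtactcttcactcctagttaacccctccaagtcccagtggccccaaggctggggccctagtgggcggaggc
Crim1, + strand, chr17:78199998-78200247: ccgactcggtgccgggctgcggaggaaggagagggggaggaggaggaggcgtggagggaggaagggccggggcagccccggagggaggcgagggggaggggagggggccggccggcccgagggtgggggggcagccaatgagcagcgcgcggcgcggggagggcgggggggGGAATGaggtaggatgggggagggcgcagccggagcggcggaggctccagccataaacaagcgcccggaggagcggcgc
Yap1, - strand, chr9:8004597-8004846: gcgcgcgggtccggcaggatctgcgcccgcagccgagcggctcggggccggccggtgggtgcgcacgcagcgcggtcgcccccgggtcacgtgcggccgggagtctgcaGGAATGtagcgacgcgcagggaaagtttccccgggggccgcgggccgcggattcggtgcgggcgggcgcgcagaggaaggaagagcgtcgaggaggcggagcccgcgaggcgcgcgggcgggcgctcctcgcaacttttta
The first base of the core lies 65 bases before the start in Amotl2, 79 in Crim1, 103 in Cyr61, 141 in Yap1 and 233 in Axl. Ankrd1 held 2 cores, at 210 and 123 bases before its start. In Lats2 the core begins at base 5 after the start. Neither TGANTCA, the core bound by AP-1, searched the same way, nor the CArG box bound by the serum response factor was found in any of the 8 windows. Among all windows, 7.81% held the AP-1 core and 1.63% a CArG box. A match is a run of letters and was not tested as a binding site. Among all genes the core was about as frequent in those higher in culture as in the others. Leaving out the 10 genes, 15.9% of the genes with a window and at least 4-fold higher on day 3 than on day 0 held it, against 17.8% of those at least 4-fold lower and 14.8% of those less than 4-fold apart.

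**Figure D1:**
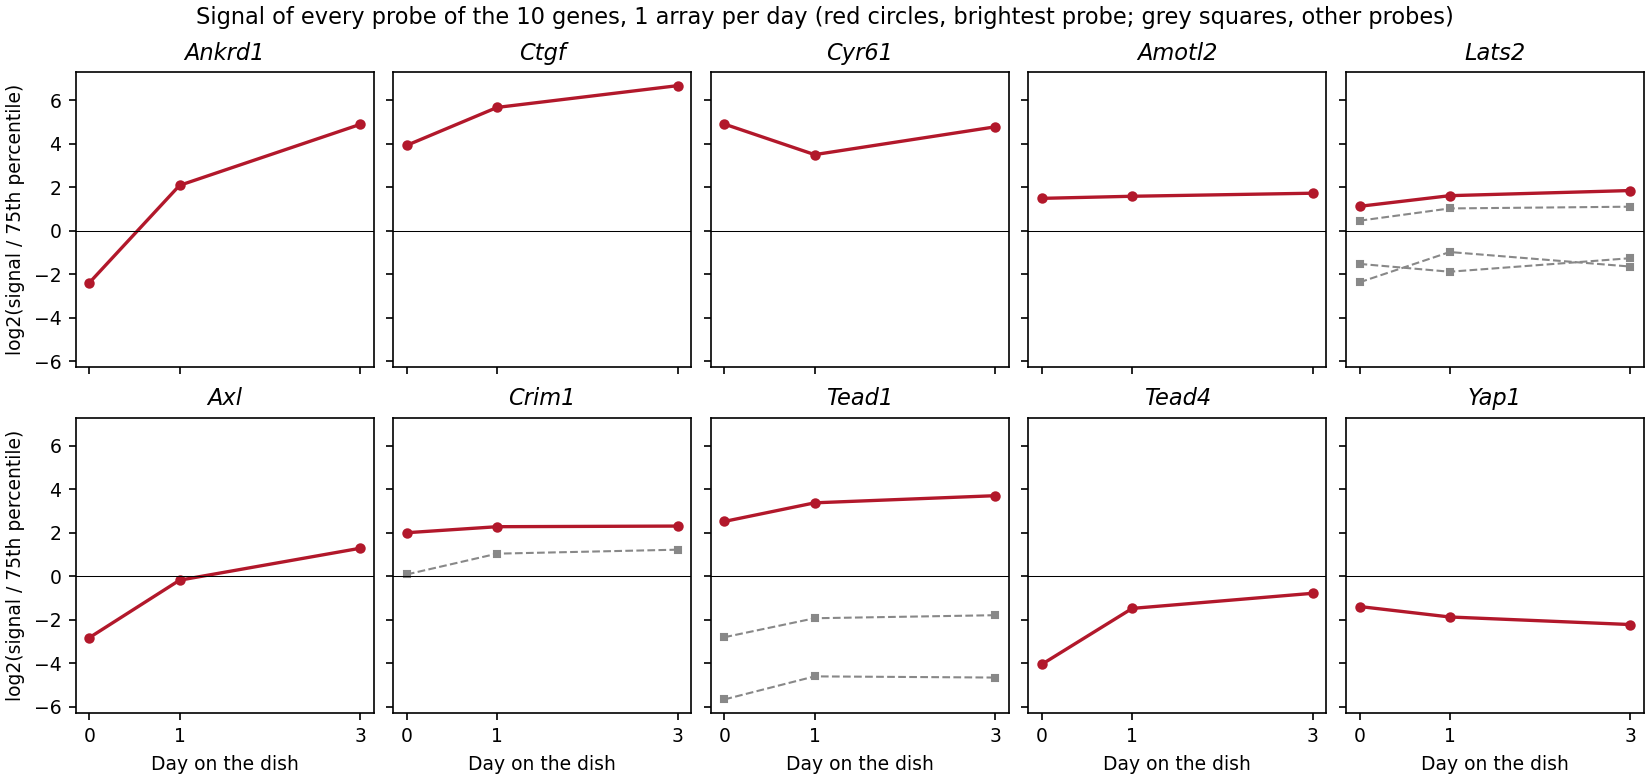
Signal of every probe of the 10 genes on the arrays of days 0, 1 and 3, as the log2 of the signal over the array's 75th percentile (vertical axis) against the day on the dish (horizontal axis). Red circles are the brightest probe of a gene and grey squares its other probes. Ankrd1, Ctgf, Axl and Tead4 climb on both days, Cyr61 dips on day 1, Yap1 declines, and the probes of Lats2 cross one another.

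Ankrd1 encodes an ankyrin repeat protein of muscle sarcomeres and the nucleus, and is one of the most used readouts of Yap activity. Its signal was 0.191, 4.26 and 29.7 times the 75th percentile on days 0, 1 and 3. Each later array was well above the earlier one. Ankrd1 was 22.3-fold higher on day 1 and 155-fold higher on day 3 than on day 0, and 6.97-fold higher on day 3 than on day 1. Ranked from the highest ratio, it came 12th of 18998 genes on day 3 and 55th of 18895 genes on day 1, both against day 0. Its probe lies at chr19:36186809-36186868 (mm9) and matches the transcript NM_013468.

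Ctgf encodes connective tissue growth factor, a secreted matricellular protein tied to fibrosis. Its signal was 15.3, 51.0 and 102 times the 75th percentile on days 0, 1 and 3. It was 3.34-fold higher on day 1 and 6.68-fold higher on day 3 than on day 0. Between day 1 and day 3 the log2 ratio was 1.00, which before rounding lies just under the 2-fold line. Its probe lies at chr10:24318281-24318340 (mm9).

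Cyr61 encodes the closest relative of Ctgf, a secreted integrin ligand that is also known as an immediate early gene of the serum response. It ran apart from Ctgf and Ankrd1. Its signal was 30.0, 11.3 and 27.5 times the 75th percentile on days 0, 1 and 3. It was 2.65-fold lower on day 1 than on day 0 and 2.42-fold higher on day 3 than on day 1. The ratio of day 3 to day 0 was -0.13 on the log2 scale, within the spread between probes. It took the other sign in 2 of 10 alternative settings. Its probe lies at chr3:145310187-145310246 (mm9).

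Axl encodes a receptor tyrosine kinase that binds the ligand Gas6. Its signal was 0.141, 0.882 and 2.44 times the 75th percentile on days 0, 1 and 3. The order of the days was the same as for Ankrd1. Axl was 6.24-fold higher on day 1 and 17.2-fold higher on day 3 than on day 0, and 2.76-fold higher on day 3 than on day 1. Its probe lies at chr7:26542953-26543012 (mm9).

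Crim1 encodes a membrane protein that binds bone morphogenetic proteins and other growth factors. Its brighter probe read 4.01, 4.85 and 4.95 times the 75th percentile on days 0, 1 and 3, and the other probe 1.06, 2.06 and 2.33. The probes gave different sizes. Against day 0, the log2 ratio on day 1 was 0.28 by the brighter probe and 0.95 by the other, and on day 3 it was 0.30 and 1.14. By the brighter probe neither exceeded the spread between probes. Both take the other sign with reference gene scaling, at -0.12 for day 1 and -0.11 for day 3. The probes agreed that day 3 lay close to day 1, at 0.03 and 0.18. They lie at chr17:78775299-78775358 and chr17:78773753-78773812 (mm9).

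Amotl2 and Lats2 are the feedback inhibitors among the 10 genes. Amotl2 encodes a scaffold of the angiomotin family that holds Yap at cell junctions. Its signal was 2.81, 3.01 and 3.32 times the 75th percentile on days 0, 1 and 3, and none of its differences, 0.10 and 0.24 against day 0 in log2 ratio, exceeded the spread between probes. Both turn negative with reference gene scaling (-0.30 and -0.17), and the first also with quantile normalization (-0.01). Its probe lies at chr9:102635025-102635084 (mm9).

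Lats2 encodes a kinase that phosphorylates Yap. Its brightest probe read 2.18, 3.07 and 3.61 times the 75th percentile on days 0, 1 and 3. That gave log2 ratios of 0.49 for day 1 and 0.72 for day 3 against day 0, both above the spread between probes. On day 3 Lats2 passed 2-fold with median centring (1.03) and with spike-in scaling (1.25). With reference gene scaling its ratios were 0.10 on day 1 and 0.31 on day 3, both within that spread. The 4 probes of Lats2 disagreed on day 1, where their log2 ratios against day 0 ran from -0.36 to 1.39. On day 3 against day 0 all 4 were positive, from 0.26 to 0.73. The probe that was lower on day 1 matches another transcript, NM_153382, and lies at chr14:58341239-58341298 (mm9), away from the other 3, which lie between 58308807 and 58310032.

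Tead1 and Tead4 encode the DNA-binding partners of Yap. Tead4 read 0.0607, 0.359 and 0.581 times the 75th percentile on days 0, 1 and 3, by a probe at chr6:128177377-128177436 (mm9). It was 5.92-fold higher on day 1 and 9.57-fold higher on day 3 than on day 0. Background correction by normexp, under which dim signals lie closer together, gave log2 ratios of 1.87 and 2.32 in place of 2.56 and 3.26. The log2 ratio of day 3 to day 1 was 0.69.

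The brightest probe of Tead1 read 5.74, 10.4 and 13.0 times the 75th percentile on days 0, 1 and 3. Its 3 probes agreed closely although their brightness differed widely. Against day 0 they gave log2 ratios of 0.85, 0.87 and 1.06 on day 1, and of 1.18, 1.01 and 1.00 on day 3. Between day 1 and day 3 they gave 0.33, 0.14 and -0.05. Most of the difference in Tead1 was present on day 1. With reference gene scaling the brightest probe gave 0.77 on day 3, short of 2-fold. The brightest probe lies at chr7:120049844-120049903 (mm9).

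Yap1 read 0.381, 0.273 and 0.215 times the 75th percentile on days 0, 1 and 3. It was 1.40-fold lower on day 1 and 1.78-fold lower on day 3 than on day 0, the lowest signal being that of day 3. Its log2 ratios against day 0, -0.48 and -0.83, exceeded the spread between probes as reported. They were negative in each of the 10 alternative settings, ranging from -1.24 to -0.30 for day 3. The day 1 ratio fell within the spread (0.34) with median centring (-0.27), quantile normalization (-0.33) and spike-in scaling (-0.31). The day 3 ratio fell within it (0.47) with spike-in scaling (-0.30). Neither reported ratio lay below the lower quartile of all genes, -0.62 on day 1 and -0.85 on day 3. Yap1 has a single probe, at chr9:7932540-7932599 (mm9), so no other probe bears on these ratios.

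**Figure D2:**
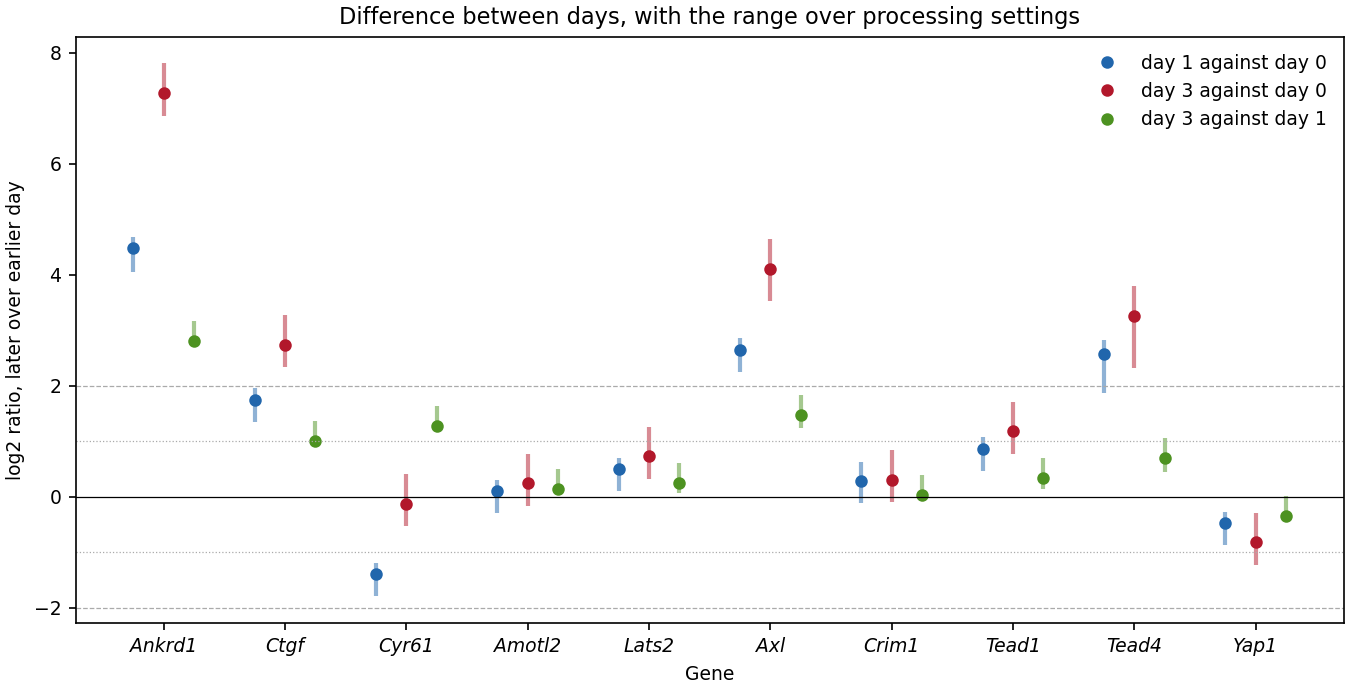
The log2 ratio of each of the 10 genes (vertical axis, later over earlier day) for day 1 against day 0 (blue), day 3 against day 0 (red) and day 3 against day 1 (green). Points are the value as reported and bars the range over it and the 10 alternative settings; dotted and dashed lines mark 2-fold and 4-fold. The bars of Ankrd1, Ctgf, Axl and Tead4 stay above 4-fold for day 3 against day 0, and those of Amotl2, Crim1 and Cyr61 cross 0.

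Counted against all named genes, higher values were frequent among the 10 genes. For day 1 against day 0, 4 of 10 were at least 2-fold higher (Ankrd1, Ctgf, Axl and Tead4), where 13.5% of all genes counted were. At least 4-fold higher were 3, all of these but Ctgf, against 3.38% of all genes. Cyr61 was the 1 gene at least 2-fold lower, where 15.3% of all genes were. No member lay 4-fold or more below day 0, where 5.15% of all genes did. The median log2 ratio was 0.67 over the 10 genes and -0.11 over all genes. For day 3 against day 0, 5 of 10 were at least 2-fold higher, Tead1 having joined them, where 16.6% of all genes were. At least 4-fold higher were 4, against 5.35%. None was at least 2-fold lower, where 21.6% of all genes were, and 7.85% were at least 4-fold lower. The median was 0.95 over the 10 genes and -0.11 over all genes. For day 3 against day 1, 3 of 10 were at least 2-fold higher (Ankrd1, Axl and Cyr61), where 6.99% of all genes were, and Ankrd1 alone was at least 4-fold higher, where 1.62% were. None lay 2-fold or more below day 1, where 8.1% of all genes did and 1.27% lay 4-fold or more below. The median was 0.51 over the 10 genes and -0.04 over all genes. The 10 genes were chosen with results of these arrays known, and the comparisons share arrays. The counts therefore describe these genes only.

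**Figure D3:**
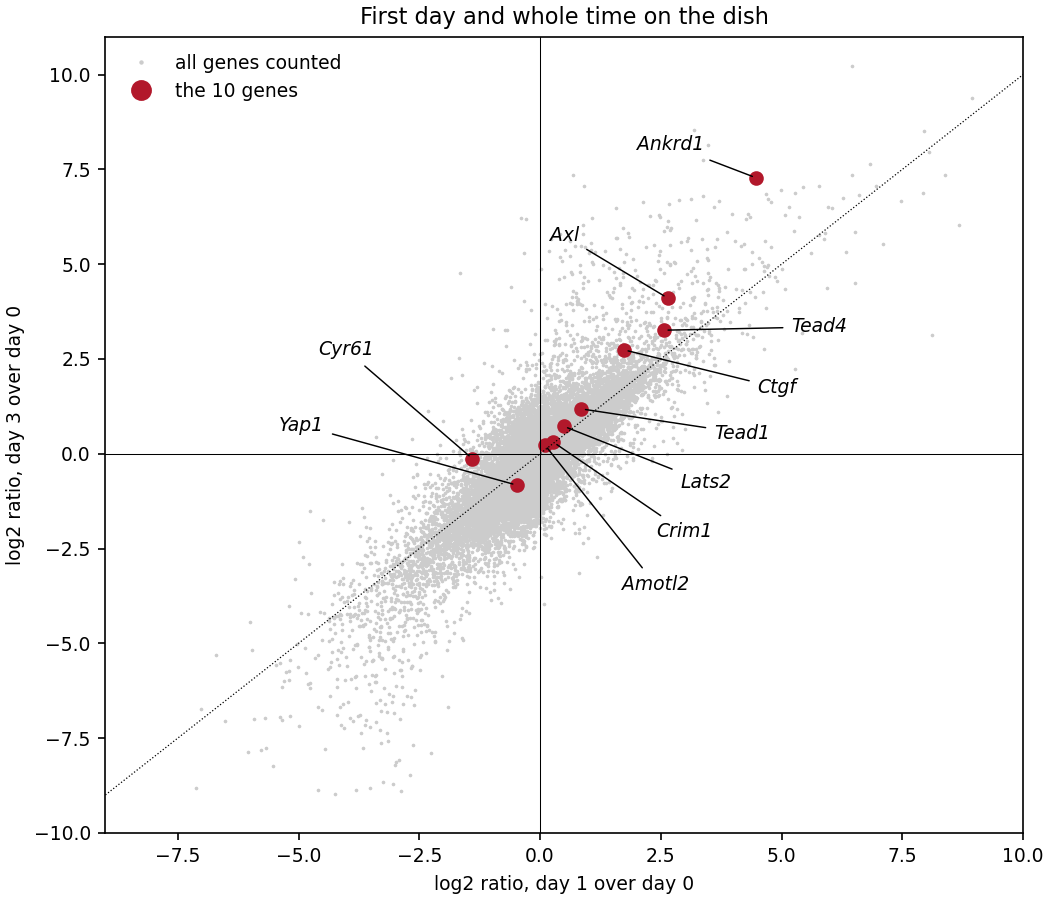
The log2 ratio of day 1 over day 0 (horizontal axis) against that of day 3 over day 0 (vertical axis) for the 10 genes (red) and all genes counted on both (grey); both axes share the day 0 array, and the dotted line marks equal ratios. Ankrd1 stands at 4.48 and 7.28, above the line. Cyr61 stands at -1.40 and -0.13, close to the horizontal line through 0.

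With 3 arrays many genes share a pattern. For each of 4 genes, the genes with the smallest distance in the pair of log2 ratios against day 0 were sought among 17230 genes well above background on all 3 arrays. Nearest to Ankrd1 were Tmem40 at a distance of 0.60, the simple keratin gene Krt19 at 0.61 and Ercc6l, a helicase of mitotic chromosomes, at 0.71. No gene lay nearer to Ankrd1 than 0.47, the median spread between probes. Nearest to Ctgf were Rfc3, a replication factor subunit, B4galt2 and the cell cycle inhibitor Cdkn2b, at 0.04 to 0.05, among 125 genes within that spread. Nearest to Cyr61 were Lyz1, Mylpf and the small GTPase gene Rhob, at 0.03 to 0.05, among 135. Yap1 had 2310 genes that close, led by Olfr955, Th and Hus1b. A match of this kind over 3 arrays says little beyond the direction of the 2 differences.

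Other genes of the pathway were taken from 3 lists. The first holds 15 further genes of published Yap and Taz target signatures. On day 1, 6 of the 14 with a value lay 2-fold or more above day 0, where 13.5% of all genes did. Below it by 2-fold or more were 4, where 15.3% of all genes were. The median log2 ratio was 0.47. With reference gene scaling 4 lay that far above and 5 that far below, with a median of 0.08. On day 3, 7 of 15 lay that far above day 0, where 16.6% of all genes did. That far below it were 3, where 21.6% of all genes were. The median was 0.95, or 0.37 by the mean of each gene's probes. Myof, which encodes the membrane repair protein myoferlin, read 5.23, 34.1 and 37.5 times the 75th percentile on days 0, 1 and 3. F3, the gene of tissue factor, which starts blood coagulation, read 5.10, 18.2 and 26.6. Both were higher on both days of culture than on day 0. Ptpn14, a phosphatase gene whose product binds Yap, had log2 ratios of 1.72 on day 1 and 2.53 on day 3, or 1.74 on day 3 by the mean of its probes. The transcription factor gene Foxf2 was not well above background on days 0 and 1. On day 3 it was, at least 4.94-fold above day 0, though with normexp its log2 ratio was 0.67, short of 2-fold.

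Several targets of that list ran the other way. Nuak2, a kinase gene, read 8.55, 1.75 and 2.51 times the 75th percentile on days 0, 1 and 3. Its log2 ratios against day 0 were -2.29 on day 1 and -1.77 on day 3. Ccdc80, a matrix protein gene, read 1.84, 0.315 and 1.28, low on day 1 as Cyr61 was, with a log2 ratio of -2.55 against day 0. Nt5e, which encodes the ectonucleotidase CD73, had log2 ratios of -1.96 on day 1 and -1.04 on day 3. The growth factor gene Tgfb2 stood at -1.64 on day 1 and -0.17 on day 3, with the day 3 value changing sign in 3 of 10 alternative settings, and the stress gene Gadd45a at -0.78 and -1.41.

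The second list holds 20 kinases, scaffolds and upstream regulators of the Hippo pathway. On day 1, 7 lay 2-fold or more above day 0, where 13.5% of all genes did. Below it by 2-fold or more was 1, where 15.3% of all genes were. The median log2 ratio was 0.60, or 0.30 by the mean of each gene's probes. By that mean the count above was 7 as well, although Mob1b, 1 of the 7, stood at 0.31 in place of 1.89. On day 3, 5 lay that far above day 0, where 16.6% of all genes did, and none that far below, where 21.6% did. The day 3 median was 0.36 and reads -0.05 with reference gene scaling. Of the core kinase genes, Stk3 stood at 0.74 on day 1 and 0.03 on day 3, and Lats1 at 0.79 and 0.36. Both turn negative on day 3 with reference gene scaling. By the mean of its probes Stk3 stood at 0.26 and -0.14, and Lats1 at 1.30 and 0.35. Stk4 stood at 1.05 on day 1 and 0.85 on day 3, or 1.51 on day 3 by the mean of its probes. The scaffold gene Sav1 stood at 0.55 on day 1 and 0.82 on day 3, or 1.18 and 1.57 by the mean of its probes. Larger differences lay elsewhere. Frmd6, which encodes a membrane-bound activator of the kinases, read 0.486, 2.07 and 4.19 times the 75th percentile on days 0, 1 and 3. Its log2 ratio of 3.11 for day 3 against day 0 was 1.90 by the mean of its probes. Ajuba, whose product inhibits Lats kinases, stood at 1.79 on day 1 and 2.10 on day 3. The kinase gene Map4k4 stood at 1.56 and 1.80, or 2.18 and 2.31 by the mean of its probes.

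The angiomotin family differed among its members. Amotl1 read 0.113, 0.236 and 0.612 times the 75th percentile on days 0, 1 and 3, higher on each later array. Amot read 3.61, 1.07 and 4.64, low on day 1 alone, with log2 ratios of -1.75 for day 1 against day 0 (-1.20 by the mean of its probes) and 2.11 for day 3 against day 1. Amotl2, described above, was within 2-fold on all days.

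The third list holds 7 genes: Taz, the remaining Tead genes and the Vgll cofactors. Taz, listed as Wwtr1, read 4.20, 6.41 and 4.40 times the 75th percentile on days 0, 1 and 3 by its brightest probe. Its log2 ratios against day 0 were 0.61 on day 1 and 0.07 on day 3, or 1.38 and 0.97 by the mean of its probes. Unlike Yap1, it was not lower on either day by either measure, although with reference gene scaling its day 3 ratio was -0.34. Tead2 and Tead3 stayed within 2-fold, at -0.33 and 0.01 on day 1 and -0.12 and -0.09 on day 3, the last 3 of which change sign under some settings. The cofactor gene Vgll3 was, by the brightest probes, the only gene of the list at least 2-fold higher on either day. Of all genes, 13.5% were that far above day 0 on day 1 and 16.6% on day 3. Vgll3 read 0.0603, 0.375 and 0.603 times the 75th percentile on days 0, 1 and 3, with log2 ratios of 2.63 and 3.32. Vgll4, whose product competes with Yap for Tead factors, stood at -1.18 on day 1 and -0.95 on day 3. The median of this list was -0.20 on day 1, or 0.02 with median centring, and 0.07 on day 3, or -0.34 with reference gene scaling. Of the 7 genes, 5 held the Tead core in a promoter window, as did 4 of 16 genes of the second list and 1 of 9 of the first. Among all genes with a window, 16.6% held it.

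**Figure D4:**
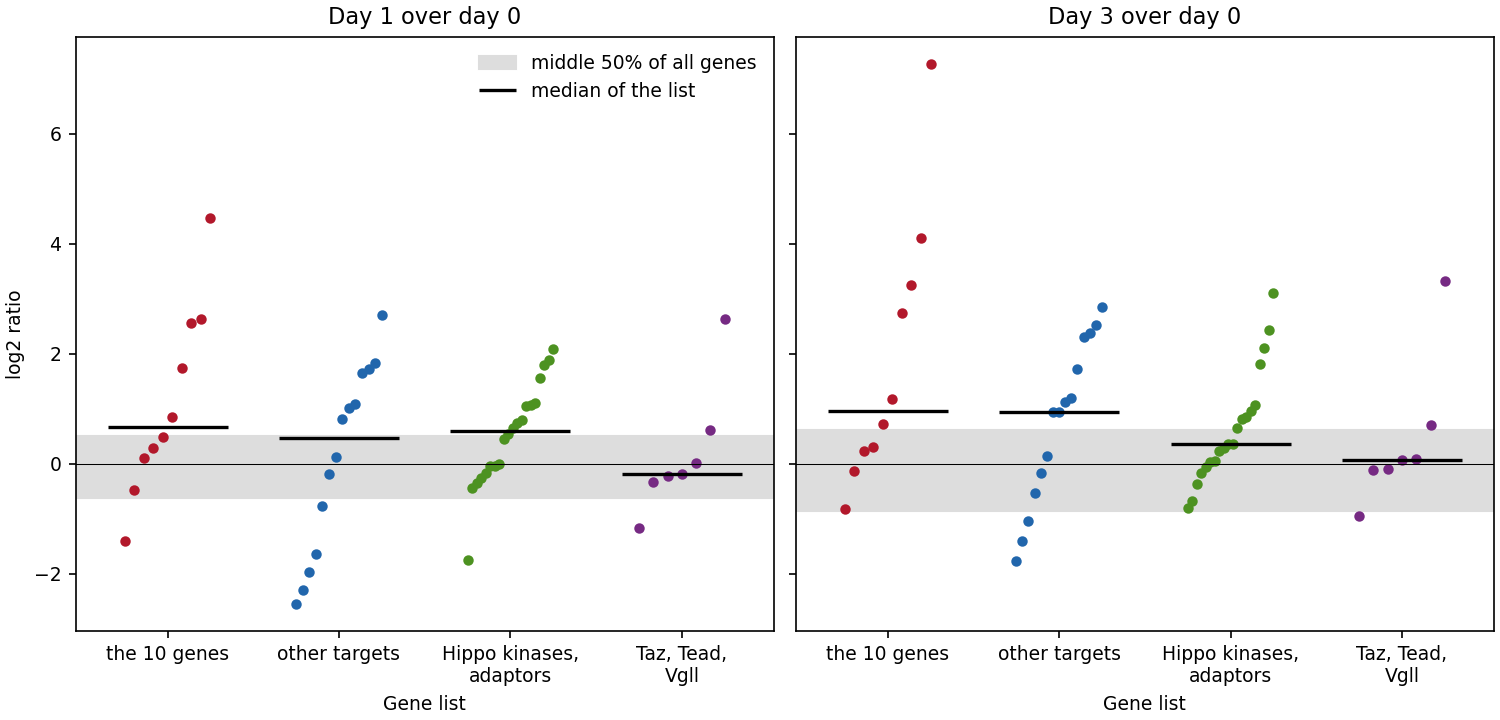
The log2 ratio (vertical axis) of day 1 over day 0 (left) and day 3 over day 0 (right) for each gene of the 10 genes and of the 3 lists (horizontal axis), sorted within a list; Foxf2 has no value on day 1 and a lower bound on day 3. Black lines are medians and the grey band holds the middle 50% of all genes. Medians on day 3 are 0.95 for the 10 genes, 0.95 for the other targets, 0.36 for Hippo kinases and adaptors and 0.07 for Taz, Tead and Vgll genes.

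The cells were checked against markers. All 10 proximal tubule markers were well above background on every array, and their summed signal was 867, 148 and 15.9 times the 75th percentile on days 0, 1 and 3. The fresh sample also held markers of other nephron segments: the 6 loop and distal tubule markers summed to 392, 92.0 and 16.9, and all 6 were at least 2-fold lower on day 1 than on day 0. The 6 podocyte markers summed to 12.7, 3.00 and 4.41, and the 6 endothelial markers to 23.2, 12.6 and 5.37. The endothelial markers differed on day 1, where Cdh5 stood at 0.79 and Pecam1 at 0.11 in log2 ratio against day 0. Kdr stood at -1.71 there, Emcn at -1.11, Plvap at -0.50 and Tek at -0.46. The 6 macrophage markers summed to 13.1, 8.98 and 15.0, but differed among themselves. Cd68 was 12.2-fold higher on day 1 and 5.07-fold higher on day 3 than on day 0. In log2 ratio on day 1 and day 3, Lyz2 stood at -0.98 and 0.15, and Itgam at 0.63 and 0.63. Adgre1 stood at 0.12 and -0.23, Csf1r at -0.02 and -0.04, and C1qa at -0.44 and -0.18. The 6 markers of fibroblasts and mural cells summed to 9.38, 14.6 and 20.1. They too did not run together. Acta2, the smooth muscle actin gene, stood at 0.82 on day 1 and 1.48 on day 3 in log2 ratio against day 0, Col3a1 at 0.54 and 1.61, and Col1a1 at -0.71 and 2.83. On day 3 Pdgfra stood at 0.10, Pdgfrb at -0.88 and Dcn at -0.96. A sum follows the brightest probes of its list and is not set against the sum of another list. Every marker of these lists was well above background on every array. The part of a shift in cell types in the results on the 10 genes was not tested.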

How the data were processed

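Cy3-labelled RNA of 3 samples, 1 per day, was measured on 3 Agilent mouse 1-colour arrays. Per the file headers, the deposited array files hold each spot's signal as an intensity from Feature Extraction 10.5.1.1 (the submitters' processing notes name 9.1), background subtracted, spatially detrended and not normalized between arrays. The multiplicative part of that detrending was in force on the day 0 and day 1 arrays only. The authors' deposited value table is a ratio on a linear scale: its 43379 values per array matched the processed signal over the array's 75th percentile to within 0.001.

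From these, the log2 processed signal minus the array's 75th percentile was taken, outlier spots were left out (94, 102 and 85 on days 0, 1 and 3), and spots of a probe were averaged. Probes were named by accession (26888), symbol (5025) or unambiguous synonym (832) in the RefSeq mouse table, and 8429 stayed unnamed. The brightest probe by mean signal stands for a gene. Genes well above background on at least 1 array of a comparison were counted at 2-fold and 4-fold. A dim array gives a bound ("at least") against the lowest signal well above background there, 1.14%, 1.06% and 0.936% of the 75th percentile. No test was possible with 1 array per day, and precision is limited by how few arrays there are. The counting was tested on simulated data, with differences of more than 4-fold planted in brighter probes and noise as between repeated spots. Counts at 2-fold and dim probes were not covered by that test. Probe positions are mm9; exons and UTRs were not assigned here. The genes named are the 10 genes, members of the 3 pathway lists and of the marker lists, and the 3 nearest genes of each of 4 genes, clone and prediction names left out. The 10 genes and all lists were chosen with earlier results of these data known. Alternatives were median centring, quantile normalization, scaling to reference genes or spike-ins, and normexp (limma 3.58.1, R 4.3.3, offset 50). Others were the background-subtracted signal without the multiplicative trend correction, and the value table. The last were the mean of a gene's probes, outlier spots kept, and genes well above background on both arrays only. Other steps used Python 3.11.15 with pandas 2.3.3.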

Additional observations from a re-analysis of the deposited data

How the results depend on the processing

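Across 10 alternatives, the medians and counts of the 10 genes moved beyond the spread between probes or 1.5 times with reference gene and spike-in scaling only. With reference gene scaling the median log2 ratio of the 10 genes for day 1 against day 0 was 0.28, and 1 gene, Yap1, was at least 2-fold lower on day 3 than on day 0. With spike-in scaling the median for day 3 was 1.48 against day 0 and 0.87 against day 1, and 5 genes were at least 2-fold higher on day 3 than on day 1. Every other median of the 10 genes moved by less than the spread between probes, and every other count of them stayed within 1.5 times its value. Ratios of single genes moved by more than that spread in 35 of 300 cases, all of them with reference gene or spike-in scaling or normexp. No gene at least 2-fold apart changed sign under any alternative. The signs that did change are those given for Amotl2, Crim1 and Cyr61 and, with spike-in scaling, that of Yap1 for day 3 against day 1 (0.02 in place of -0.35). Tead4 on day 1 fell short of 4-fold with normexp, at 1.87, and Tead1 on day 3 short of 2-fold with reference gene scaling, at 0.77. No paired analysis was possible because each day has 1 sample, and for the same reason no sample could be left out. Signal over background limits the dim probes, chiefly Tead4 and Axl on day 0, whose ratios were 2.32 and 3.53 with normexp for day 3 against day 0. Of the Hippo kinases and adaptors, 4 were at least 2-fold above day 0 on day 1 with reference gene scaling in place of 7, and on day 3 it was 8 with median centring and 9 with spike-in scaling in place of 5. Of the other targets, 1 lay 2-fold below on day 3 with spike-in scaling in place of 3. Over all genes, reference gene scaling gave 403 in place of 638 genes 4-fold higher on day 1 than on day 0, and, 2-fold, 1503 in place of 2557 higher and 4810 in place of 2887 lower. On day 3 against day 0 it gave 2286 in place of 1492 genes 4-fold lower and 1943 in place of 3152 genes 2-fold higher, while spike-in scaling gave 1806 in place of 1017 higher and 896 in place of 1492 lower at 4-fold, and 5528 and 2422 in place of 3152 and 4095 at 2-fold. On day 3 against day 1 spike-in scaling gave 498 and 141 in place of 307 and 241 at 4-fold, and 2358 and 778 in place of 1322 and 1532 at 2-fold. Normexp gave 133 genes 4-fold lower and 841 genes 2-fold lower there. Median centring gave 4423 in place of 3152 genes 2-fold higher on day 3 than on day 0.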
